A study of Mus musculus with 23 samples.

Results

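Hepatic stellate cells and the extracellular matrix were followed here through 42 genes, chosen by name: the collagens, proteoglycans and glycoproteins of the liver scaffold, the enzymes that cross-link or degrade it, and the filaments, receptors and growth factors that mark stellate cells and the myofibroblasts they can become. The choice was made with earlier results of these data known, so that counts of members beside shares of all genes are descriptions, not independent tests. The members are 42 of the 37074 gene names on the array, and each was read from the probe with the highest mean log2 signal over all arrays. Every member was on the array and passed the filter on low signal. For 39 members the probe was well above background on 23 of 23 arrays, whereas Col5a2 and Eln reached that level on 10 arrays each and Lox on 8. These 3 passed the filter through 1 group only, Col5a2 and Lox through WT PCN mice and Eln through Pxr-/- CONT mice.

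The arrays measured RNA of whole liver, 1 array per male mouse. WT mice on the C57BL/6J background received corn oil (WT CONT, n = 6) or pregnenolone 16α-carbonitrile in corn oil (WT PCN, n = 5), and mice lacking the nuclear receptor PXR throughout the body, backcrossed on C57Bl/6J, received the same treatments (Pxr-/- CONT, n = 6, and Pxr-/- PCN, n = 6). PCN, a ligand of rodent PXR, was injected into the peritoneum at 100 mg/kg daily for 4 days, and livers were taken at ZT6 (6 h after lights on), 6 h after the last injection. The WT mice were bought at 6 weeks of age and acclimatised for 2 weeks, whereas the Pxr-/- mice came from a colony kept for 10 years in the facility and their age was not stated separately, so that genotype and colony of origin cannot be told apart. The arrays were washed in 2 batches, and each group had mice in both.

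In healthy liver, stellate cells sit between the sinusoidal endothelium and the hepatocytes, store retinoids as retinyl esters and express desmin and reelin. After injury, under TGF-beta and PDGF, they can turn into contractile myofibroblasts that secrete fibrillar collagens, a process known as activation. Portal fibroblasts and mesothelial cells are other sources of collagen, and hepatocytes secrete plasma fibronectin. In RNA of whole liver, fewer cells of a type and less RNA per cell cannot be told apart.

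Signals are given as normalised log2 values, a change is a fitted difference of log2 values ± its standard error, and a member was called when limma gave a Benjamini-Hochberg adjusted p of at most 0.05, over all probes tested, with a fold change above 1.5. Cyp3a11, the standard PXR target, measured 13.6 ± 0.42 (SD, n = 6) in WT CONT and 17.2 ± 0.16 (SD, n = 5) in WT PCN mice, against 14.3 ± 0.52 and 14.6 ± 0.37 (SD, n = 6 each) in Pxr-/- CONT and Pxr-/- PCN mice. The probe of Nr1i2, the gene that encodes PXR, had overlapping values in the genotypes, with means between 11.4 and 12.1 in the 4 groups, and so does not check the deletion. Between 29510 and 33321 probes per array were well above background.

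Stretches upstream of 4 members are shown because these members changed with PCN and, for the type IV pair, moved together across mice. The RefSeq promoter windows (GRCm38.p6, 250 bases before to 50 after the transcript start) covered 26 of the 42 members, Col6a2 with 2 windows. The Col1a2 window lies at chr6:4505368-4505667 on the plus strand and the Vim window at chr2:13574061-13574360 on the plus strand, and capitals mark the CCAAT box (CCAAT, either strand) and the TATA box (TATAAA, either strand):
Col1a2: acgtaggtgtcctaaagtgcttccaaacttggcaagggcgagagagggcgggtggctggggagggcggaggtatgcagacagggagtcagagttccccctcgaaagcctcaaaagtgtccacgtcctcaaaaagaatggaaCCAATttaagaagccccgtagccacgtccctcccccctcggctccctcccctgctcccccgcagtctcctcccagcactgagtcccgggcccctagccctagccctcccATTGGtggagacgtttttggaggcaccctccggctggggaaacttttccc
Vim: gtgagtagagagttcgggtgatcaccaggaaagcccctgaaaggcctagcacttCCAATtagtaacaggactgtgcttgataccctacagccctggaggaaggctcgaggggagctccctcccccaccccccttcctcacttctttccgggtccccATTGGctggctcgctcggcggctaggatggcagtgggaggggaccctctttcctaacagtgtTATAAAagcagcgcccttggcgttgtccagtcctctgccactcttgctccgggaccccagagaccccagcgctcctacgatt
The Col4a1 window lies at chr8:11312777-11313076 on the minus strand and the Col4a2 window at chr8:11312555-11312854 on the plus strand. These neighbours are transcribed in opposite directions from starts 21 bases apart, and capitals mark the 78 bases that the windows share, each read 5′ to 3′ on the strand of its own gene:
Col4a1: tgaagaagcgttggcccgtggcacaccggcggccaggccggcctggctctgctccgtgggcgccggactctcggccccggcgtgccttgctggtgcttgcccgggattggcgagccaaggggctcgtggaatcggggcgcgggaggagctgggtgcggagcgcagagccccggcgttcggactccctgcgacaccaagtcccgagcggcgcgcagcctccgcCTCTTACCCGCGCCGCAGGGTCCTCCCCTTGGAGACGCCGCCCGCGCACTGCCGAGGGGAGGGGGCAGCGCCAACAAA
Col4a2: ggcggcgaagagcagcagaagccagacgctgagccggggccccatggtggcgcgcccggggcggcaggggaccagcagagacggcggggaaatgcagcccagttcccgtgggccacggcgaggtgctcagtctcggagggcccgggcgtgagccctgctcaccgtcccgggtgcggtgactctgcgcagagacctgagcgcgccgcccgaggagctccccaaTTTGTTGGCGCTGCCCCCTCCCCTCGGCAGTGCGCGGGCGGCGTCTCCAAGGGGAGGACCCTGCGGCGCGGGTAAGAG
CCAAT was found in 11 of the 27 member windows (40.7%, against 37.4% of all 32851 windows), TATAAA in 3 (11.1% against 13.6%), the GC box GGGCGG in 19 (70.4% against 35.7%) and the SMAD box CAGAC in 12 (44.4% against 49.6%), each searched on both strands. The CArG box, searched by its usual consensus, was in none of them and in 1.63% of all windows. None of these motifs contains another, and a match is a description of the letters, not of binding.

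PCN raised matrix genes in WT liver, among them the fibrillar, type IV and type VI collagens, lumican and the lysyl oxidases Loxl1 and Loxl2. The filament gene vimentin rose as well. Of the 42 members, 20 were called higher in WT PCN than in WT CONT mice, where 3.79% of the 21056 genes tested were called higher, and 0 were called lower, where the background was 2.39%. Without the 3 members that passed the filter through 1 group, 19 of 39 were called higher. At an unadjusted p under 0.05, 27 members were higher and 2 lower by limma. Counts at an unadjusted p, here and below, are given without the share of all genes and so are not set against a background. The median change of the 42 members was 0.61, with 37 above 0, against a median of -0.02 over all genes. By adjusted p with no fold limit, 24 members were higher and 1 lower, against 11.6% and 12.4% of all genes. Groups did not overlap for 17 members that were higher in PCN mice and for 0 that were lower, against 5.85% and 6.51% of all genes.

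In Pxr-/- liver the same treatment raised 7 members, where 1.42% of all genes tested were called higher, and 0 were called lower, where the background was 0.86%. Here 21 members were higher and 0 lower at an unadjusted p under 0.05. The median change of the members was 0.32, with 38 above 0, against -0.01 over all genes, and 0 members had groups that did not overlap, higher or lower (background 1.57% and 1.58%). By adjusted p with no fold limit, 8 were higher and 0 lower, against 3.23% and 3.63% of all genes. All 7 members called in Pxr-/- mice were also called in WT mice, which is 100.0% of the shorter list and 35.0% of the longer.

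**Figure D1:**
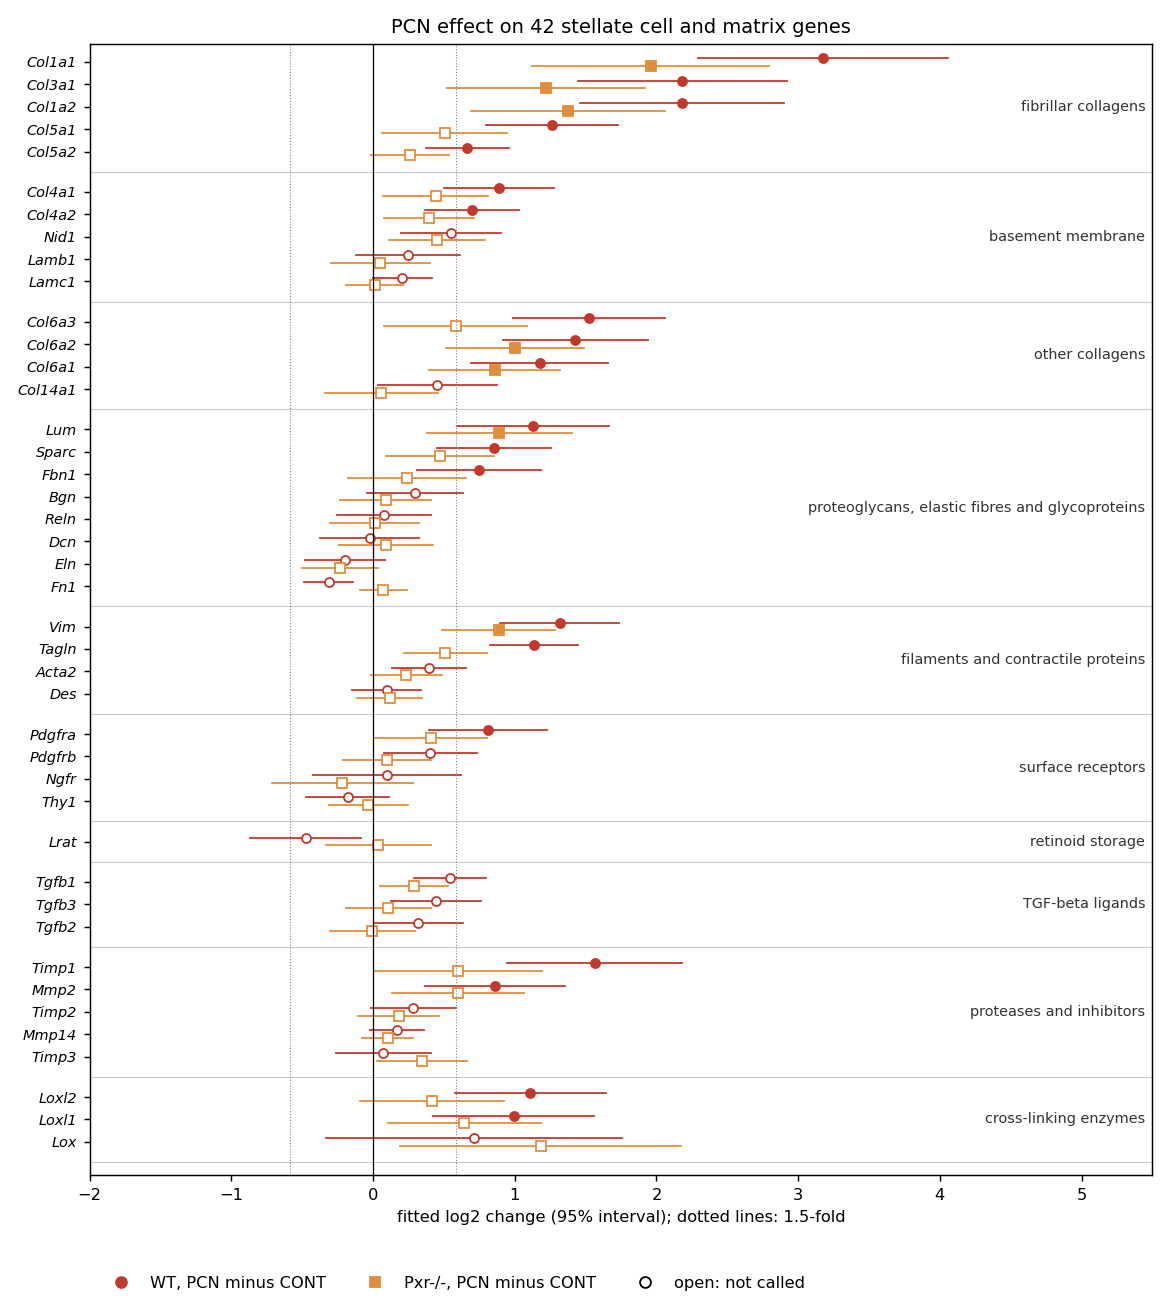
Fitted log2 change (PCN minus CONT, horizontal axis) of the 42 members by role, with 95% intervals, for WT (circles) and Pxr-/- mice (squares); filled symbols were called and dotted lines mark a fold change of 1.5. The genes of type I and type III collagen lie farthest to the right in both genotypes, Col1a1 at 3.17 in WT and 1.96 in Pxr-/- mice, and Dcn, Des and Reln lie near 0.

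The fibrillar collagens form the fibrous scaffold of scar tissue, and Col1a1, Col1a2, Col3a1 and Col5a1 rose in WT mice. The fifth, Col5a2, was called too but was near background in most controls. Col1a1, which encodes a chain of type I collagen (probe at chr11:94813115-94813174, mm9), measured 8.03 to 8.77 (median 8.61) in WT CONT mice and 11.96, 11.96, 10.11, 12.46 and 12.34 in the WT PCN mice. Its Pxr-/- values were 8.13 to 9.01 (median 8.43) in CONT mice and 8.66 to 11.78 (median 10.46) in PCN mice. Every WT PCN mouse was above every WT CONT mouse, while the lowest Pxr-/- PCN mouse lay among its controls. The change was 3.17 ± 0.42 in WT (9.02-fold, adjusted p = 2.33e-05) and 1.96 ± 0.40 in Pxr-/- mice (3.89-fold, adjusted p = 0.00628). The 3 Col1a1 probes that passed the filter gave WT changes of 3.17 to 3.27. Col1a2, the partner chain of type I collagen (probe at chr6:4490619-4490678, mm9), measured 10.06 to 10.74 (median 10.42) in WT CONT and 12.65, 12.70, 11.50, 13.19 and 13.14 in WT PCN mice, then 10.15 to 11.02 (median 10.34) in Pxr-/- CONT and 10.26 to 12.90 (median 11.77) in Pxr-/- PCN mice. It rose by 2.18 ± 0.35 in WT (adjusted p = 0.000141) and by 1.37 ± 0.33 in Pxr-/- mice (adjusted p = 0.0161). Col3a1, which encodes type III collagen (probe at chr1:45405589-45405648, mm9), stood at 9.58 to 10.58 (median 10.07) in WT CONT and at 12.32, 12.37, 11.13, 13.08 and 12.68 in WT PCN mice. In Pxr-/- mice it stood at 9.91 to 10.42 (median 9.96) in CONT and at 9.79 to 12.32 (median 11.37) in PCN mice. The rise was 2.18 ± 0.35 in WT (adjusted p = 0.000173) and 1.22 ± 0.34 in Pxr-/- mice (adjusted p = 0.033). Dimmer probes of Col1a2 (0.62 and 0.25) and of Col3a1 (0.55 and 0.62) were not called in Pxr-/- mice, though all were called in WT mice.

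Type V collagen, a minor partner that sets the width of type I fibrils, was called in WT mice alone, without a called difference between the genotypes. Col5a1 measured 7.62 to 8.19 (median 7.89) in WT CONT and 9.12, 9.29, 8.36, 9.62 and 9.60 in WT PCN mice. Pxr-/- CONT mice measured 7.84 to 8.18 (median 7.93) and Pxr-/- PCN mice 7.71 to 9.26 (median 8.43). The WT groups did not overlap and the Pxr-/- groups did, and the changes were 1.26 ± 0.22 (adjusted p = 0.000399) and 0.50 ± 0.21 (adjusted p = 0.166). Col5a2, well above background in 1 of 6 WT CONT, 5 of 5 WT PCN, 1 of 6 Pxr-/- CONT and 3 of 6 Pxr-/- PCN mice, measured 4.92 to 5.34 (median 5.21) in WT CONT mice and 5.74, 5.62, 5.56, 6.28 and 6.10 in WT PCN mice. In Pxr-/- liver its values were 5.01 to 5.58 (median 5.19) in CONT and 5.23 to 5.87 (median 5.36) in PCN mice. Its WT change was 0.67 ± 0.14 (adjusted p = 0.00161), and as it passed the filter through WT PCN mice alone, its call is not independent of the filter. The size of the change depended on the signal used, at 0.39 with normexp background correction and 1.78 on the processed signal. The call was lost with normexp, without WT PCN replicate 4, at 0.57, and within washing batch 2, at 0.34.

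**Figure D2:**
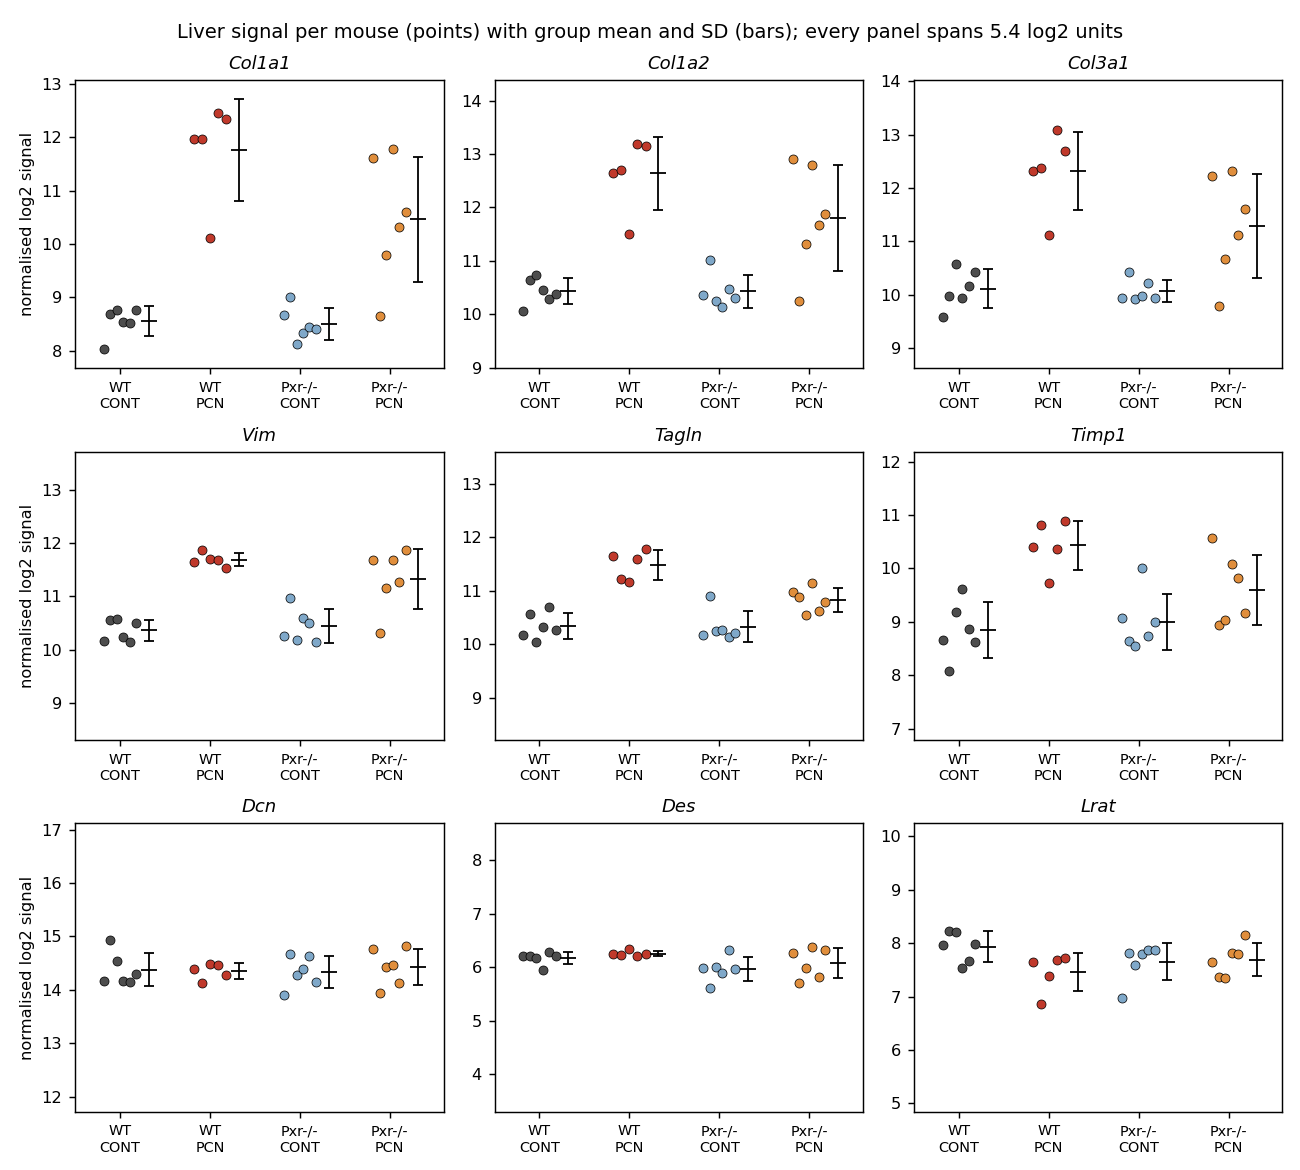
Normalised log2 signal of 9 members in each mouse (points) with the group mean and SD (bars to the right of the points), by group on the horizontal axis; every panel spans the same number of log2 units. The type I and type III collagen genes and Vim stand apart in WT PCN mice and spread over the whole range between the groups in Pxr-/- PCN mice, where the lowest mouse is at 8.66 for Col1a1, while Dcn and Des stay level.

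Type VI collagen forms beaded filaments around cells, and its 3 chains were called in WT mice. Col6a1 measured 9.17 to 10.19 (median 9.61) in WT CONT and 10.67, 11.22, 10.52, 11.09 and 10.88 in WT PCN mice. Without PXR it measured 9.41 to 9.98 (median 9.72) in CONT and 9.56 to 11.05 (median 10.68) in PCN mice. It rose by 1.18 ± 0.23 in WT (adjusted p = 0.00103) and by 0.86 ± 0.22 in Pxr-/- mice (adjusted p = 0.0238), the latter call being lost without Pxr-/- CONT replicate 1 (0.80) or Pxr-/- PCN replicate 1 or 4 (0.76 each). The Col6a2 values were 6.24 to 7.34 (median 6.65) in WT CONT, 7.87, 8.70, 7.83, 8.07 and 8.12 in WT PCN, 6.49 to 6.96 (median 6.87) in Pxr-/- CONT and 6.74 to 8.44 (median 7.90) in Pxr-/- PCN mice. Its rise was 1.43 ± 0.25 in WT (adjusted p = 0.000297) and 1.00 ± 0.23 in Pxr-/- mice (adjusted p = 0.0136). The other 2 probes for Col6a2, which are dimmer, were not called in either genotype. They gave 0.31 and 0.33 in WT mice and -0.07 and -0.09 in Pxr-/- mice, so that both Col6a2 calls depend on the probe. For Col6a3 the WT CONT mice ranged over 8.09 to 9.01 (median 8.47) and the WT PCN mice measured 10.04, 10.12, 9.34, 10.36 and 10.34. The Pxr-/- values were 8.27 to 8.72 (median 8.48) in CONT and 8.15 to 9.85 (median 9.01) in PCN mice. Its rise of 1.52 ± 0.26 in WT mice (adjusted p = 0.000244) left every PCN mouse above every control, and the Pxr-/- change of 0.58 ± 0.24 was not called (adjusted p = 0.162). Col14a1, a collagen that decorates fibrils, changed by 0.45 ± 0.20 in WT and 0.06 ± 0.19 in Pxr-/- mice and was not called in either.

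Basement membrane genes moved less. The type IV collagen chains, the sheet-forming collagens of basement membranes, were called in WT mice and laminin and nidogen chains were not. Col4a1 measured 8.40 to 9.03 (median 8.76) in WT CONT and 9.97, 9.47, 9.05, 9.63 and 9.85 in WT PCN mice. Mice lacking PXR measured 8.34 to 9.10 (median 8.97) under CONT and 8.84 to 9.99 (median 9.17) under PCN. Col4a2 measured 8.79 to 9.38 (median 9.09), then 10.06, 9.68, 9.59, 9.61 and 10.05, then 8.84 to 9.55 (median 9.38) and 9.28 to 10.16 (median 9.60) in the same order of groups. In both cases every WT PCN mouse was above every WT CONT mouse, and the changes were 0.89 ± 0.19 (adjusted p = 0.00164) for Col4a1 and 0.70 ± 0.16 (adjusted p = 0.00308) for Col4a2. In Pxr-/- mice neither was called, at 0.44 ± 0.18 and 0.39 ± 0.15. The laminin chains Lamb1 and Lamc1 changed by 0.25 ± 0.18 and 0.21 ± 0.10 in WT mice, and Nid1, which links laminin to type IV collagen, by 0.55 ± 0.17 (adjusted p = 0.0234), under the fold limit.

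Among the proteoglycans, elastic fibre proteins and glycoproteins, 3 of 8 members were called in WT mice and 1 in Pxr-/- mice. Lum, lumican, a small proteoglycan that binds collagen fibrils, measured 8.60 to 9.34 (median 8.93) in WT CONT and 10.08, 9.86, 9.52, 10.51 and 10.42 in WT PCN mice. Pxr-/- CONT mice measured 8.69 to 9.06 (median 8.88) and Pxr-/- PCN mice 8.64 to 10.56 (median 9.83). It rose by 1.13 ± 0.26 in WT (adjusted p = 0.00325) and by 0.89 ± 0.25 in Pxr-/- mice (adjusted p = 0.0328). Sparc, a secreted protein that binds collagen, measured 13.88 to 14.41 (median 14.17) in WT CONT and 14.98, 14.93, 14.66, 15.34 and 15.14 in WT PCN mice. In Pxr-/- liver its values were 13.72 to 14.59 (median 14.27) in CONT and 13.98 to 15.17 (median 14.77) in PCN mice. The WT groups of Sparc did not overlap, with a rise of 0.85 ± 0.19 (adjusted p = 0.00297), and the Pxr-/- change of 0.47 ± 0.18 was not called. Fbn1, the core of microfibrils, measured 6.37 to 7.10 (median 6.84) in WT CONT and 7.36, 7.75, 7.05, 7.80 and 7.80 in WT PCN mice. Without PXR it measured 6.43 to 7.28 (median 6.94) in CONT and 6.41 to 7.80 (median 7.12) in PCN mice. Its WT rise of 0.75 ± 0.21 (adjusted p = 0.0132) came with overlapping groups.

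Decorin and fibronectin were not called in either genotype. Dcn, a proteoglycan abundant in resting stellate cells and fibroblasts, measured 14.14 to 14.93 (median 14.23) in WT CONT and 14.38, 14.13, 14.49, 14.46 and 14.28 in WT PCN mice. The Pxr-/- values were 13.90 to 14.67 (median 14.33) in CONT and 13.95 to 14.81 (median 14.45) in PCN mice. All 4 groups overlapped, and the changes were -0.02 ± 0.17 in WT (95% interval -0.37 to 0.33) and 0.09 ± 0.16 in Pxr-/- mice (95% interval -0.24 to 0.42). Fn1, which hepatocytes secrete into plasma and stellate cells lay down in the matrix, was at 16.06 to 16.58 (median 16.44) in WT CONT and 16.07, 16.10, 16.11, 16.08 and 16.16 in WT PCN mice, and at 16.10 to 16.46 (median 16.30) and 16.21 to 16.50 (median 16.34) in the Pxr-/- groups. It was -0.31 ± 0.08 in WT PCN against WT CONT mice (adjusted p = 0.00989), under the fold limit, with WT CONT replicate 2 as low as the PCN mice. Of 4 Fn1 probes that passed the filter, a dimmer probe was called higher in Pxr-/- mice at 1.04, while the main probe gave 0.07 ± 0.08 there. In WT mice that dimmer probe gave 0.51 and the others -0.08 and -0.26, none of them called. The direction of the WT change of Fn1 therefore depends on the probe. Bgn, Eln and Reln were not called, with changes of 0.29 ± 0.16, -0.20 ± 0.14 and 0.08 ± 0.16 in WT mice.

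The filament genes split. Vim, the intermediate filament of mesenchymal cells, measured 10.15 to 10.57 (median 10.37) in WT CONT and 11.63, 11.88, 11.70, 11.68 and 11.53 in WT PCN mice, with the WT PCN mice close together and far above the controls. In Pxr-/- mice it measured 10.15 to 10.97 (median 10.38) in CONT and 10.32 to 11.87 (median 11.47) in PCN mice. The rise was 1.32 ± 0.20 in WT (adjusted p = 9.80e-05) and 0.89 ± 0.19 in Pxr-/- mice (adjusted p = 0.00857). Tagln, an actin-binding protein of smooth muscle and myofibroblasts, measured 10.04 to 10.70 (median 10.29) in WT CONT and 11.65, 11.22, 11.16, 11.60 and 11.78 in WT PCN mice. Mice lacking PXR measured 10.14 to 10.91 (median 10.23) under CONT and 10.55 to 11.14 (median 10.84) under PCN. Its WT rise of 1.13 ± 0.15 had the lowest adjusted p of the members (1.95e-05), and in Pxr-/- mice the change of 0.51 ± 0.14 passed the adjusted p (0.0342) but not the fold limit. Acta2, smooth muscle actin and the usual marker of activated stellate cells, measured 10.42 to 11.04 (median 10.77) in WT CONT and 11.10, 11.17, 11.17, 10.98 and 11.34 in WT PCN mice. Pxr-/- CONT mice measured 10.50 to 11.04 (median 10.95) and Pxr-/- PCN mice 10.81 to 11.52 (median 11.09). Its change of 0.39 ± 0.13 in WT mice (adjusted p = 0.0273) was under the fold limit, but a dimmer Acta2 probe was called at 1.27, so that the call depends on the probe. Des, desmin, which marks stellate cells in rodents at rest and after activation, measured 5.95 to 6.28 (median 6.20) in WT CONT and 6.25, 6.23, 6.33, 6.21 and 6.25 in WT PCN mice. In Pxr-/- liver its values were 5.61 to 6.32 (median 5.98) in CONT and 5.70 to 6.37 (median 6.13) in PCN mice. Its changes of 0.09 ± 0.12 in WT and 0.12 ± 0.11 in Pxr-/- mice were not called.

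Among the surface receptors, Pdgfra, which transmits PDGF signals in mesenchymal cells, was called in WT mice. It measured 7.21 to 8.05 (median 7.51) in WT CONT and 8.39, 8.36, 7.67, 8.81 and 8.57 in WT PCN mice. Without PXR it measured 7.23 to 7.74 (median 7.39) in CONT and 7.51 to 8.56 (median 7.67) in PCN mice. The rise was 0.81 ± 0.20 (adjusted p = 0.00555), with WT PCN replicate 3 among the controls. Pdgfrb, the PDGF receptor of stellate cells, changed by 0.41 ± 0.16 in WT mice (adjusted p = 0.0655), Ngfr by 0.10 ± 0.25 and Thy1, a surface protein of portal fibroblasts, by -0.18 ± 0.14, none of them called. Lrat, the enzyme that esterifies retinol for storage, measured 7.53 to 8.23 (median 7.98) in WT CONT and 7.65, 6.85, 7.39, 7.68 and 7.72 in WT PCN mice. The Pxr-/- values were 6.97 to 7.87 (median 7.80) in CONT and 7.35 to 8.16 (median 7.71) in PCN mice. All 5 WT PCN mice were below the WT CONT median, with a change of -0.47 ± 0.19 (adjusted p = 0.0735), and the Pxr-/- change was 0.04 ± 0.18, neither called.

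None of the TGF-beta ligands, which can drive collagen transcription in stellate cells, was called. Tgfb1 measured 7.13 to 7.64 (median 7.42) in WT CONT and 7.85, 7.99, 8.27, 7.68 and 7.82 in WT PCN mice. Mice lacking PXR measured 7.07 to 7.75 (median 7.45) under CONT and 7.52 to 8.16 (median 7.66) under PCN. All WT PCN mice were above all WT CONT mice, yet the change of 0.54 ± 0.12 (adjusted p = 0.00287) was under the fold limit. Tgfb3 changed by 0.44 ± 0.15 (adjusted p = 0.0382) and Tgfb2 by 0.32 ± 0.15 in WT mice, and in Pxr-/- mice the 3 ligands changed by 0.29 ± 0.12, -0.01 ± 0.14 and 0.11 ± 0.14 for Tgfb1, Tgfb2 and Tgfb3.

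Of the proteases and their inhibitors, Timp1 and Mmp2 were called in WT mice. Timp1, an inhibitor of matrix metalloproteinases that is raised in fibrosis, measured 8.08 to 9.62 (median 8.76) in WT CONT and 10.40, 10.81, 9.73, 10.36 and 10.88 in WT PCN mice. Pxr-/- CONT mice measured 8.55 to 10.00 (median 8.87) and Pxr-/- PCN mice 8.94 to 10.57 (median 9.49). The WT groups did not overlap and the Pxr-/- groups did. It rose by 1.56 ± 0.30 in WT mice (adjusted p = 0.000731), and its change of 0.60 ± 0.28 in Pxr-/- mice was not called (adjusted p = 0.218). Mmp2, a gelatinase of stellate cells, measured 5.72 to 6.37 (median 5.98) in WT CONT and 6.77, 7.15, 6.32, 7.07 and 7.08 in WT PCN mice. In Pxr-/- liver its values were 5.34 to 6.17 (median 6.03) in CONT and 5.49 to 7.26 (median 6.64) in PCN mice. Mmp2 rose by 0.86 ± 0.24 in WT mice (adjusted p = 0.0114), with WT PCN replicate 3 among the controls. Timp2, Timp3 and Mmp14 changed by 0.28 ± 0.14, 0.07 ± 0.16 and 0.17 ± 0.09 in WT mice and were not called, although a dimmer Timp2 probe was called at 0.71.

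The lysyl oxidases, which cross-link collagen and elastin, rose in part. Loxl1 measured 6.58 to 7.44 (median 7.02) in WT CONT and 8.12, 8.20, 7.18, 8.38 and 8.37 in WT PCN mice. Without PXR it measured 6.56 to 7.23 (median 6.86) in CONT and 6.41 to 8.25 (median 7.66) in PCN mice. In WT liver, PCN replicate 3 was among the controls. Loxl2 measured 7.24 to 8.03 (median 7.35) in WT CONT and 8.75, 8.51, 8.28, 8.82 and 8.73 in WT PCN mice, every PCN mouse above every control. The Pxr-/- values were 7.40 to 7.98 (median 7.66) in CONT and 7.13 to 8.88 (median 8.15) in PCN mice. Their WT changes were 0.99 ± 0.27 (adjusted p = 0.0114) for Loxl1 and 1.11 ± 0.26 (adjusted p = 0.00348) for Loxl2. Lox was near background in most mice and bright in WT CONT replicate 3, at 7.80, and in Pxr-/- PCN replicate 5, at 8.79. It was well above background in 4 of 5 WT PCN and 1 of 6 WT CONT mice, with a WT change of 0.71 ± 0.50 that was not called. The same level was reached in 3 of 6 Pxr-/- PCN mice and in 0 of 6 Pxr-/- CONT mice. In Pxr-/- liver the mean Lox signal of the PCN mice was 1.91-fold the lowest measurable signal, and the change was not called (adjusted p = 0.145). That mean, 6.22 ± 1.41 (SD, n = 6), includes replicate 5, and the group median was 5.85.

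**Figure D3:**
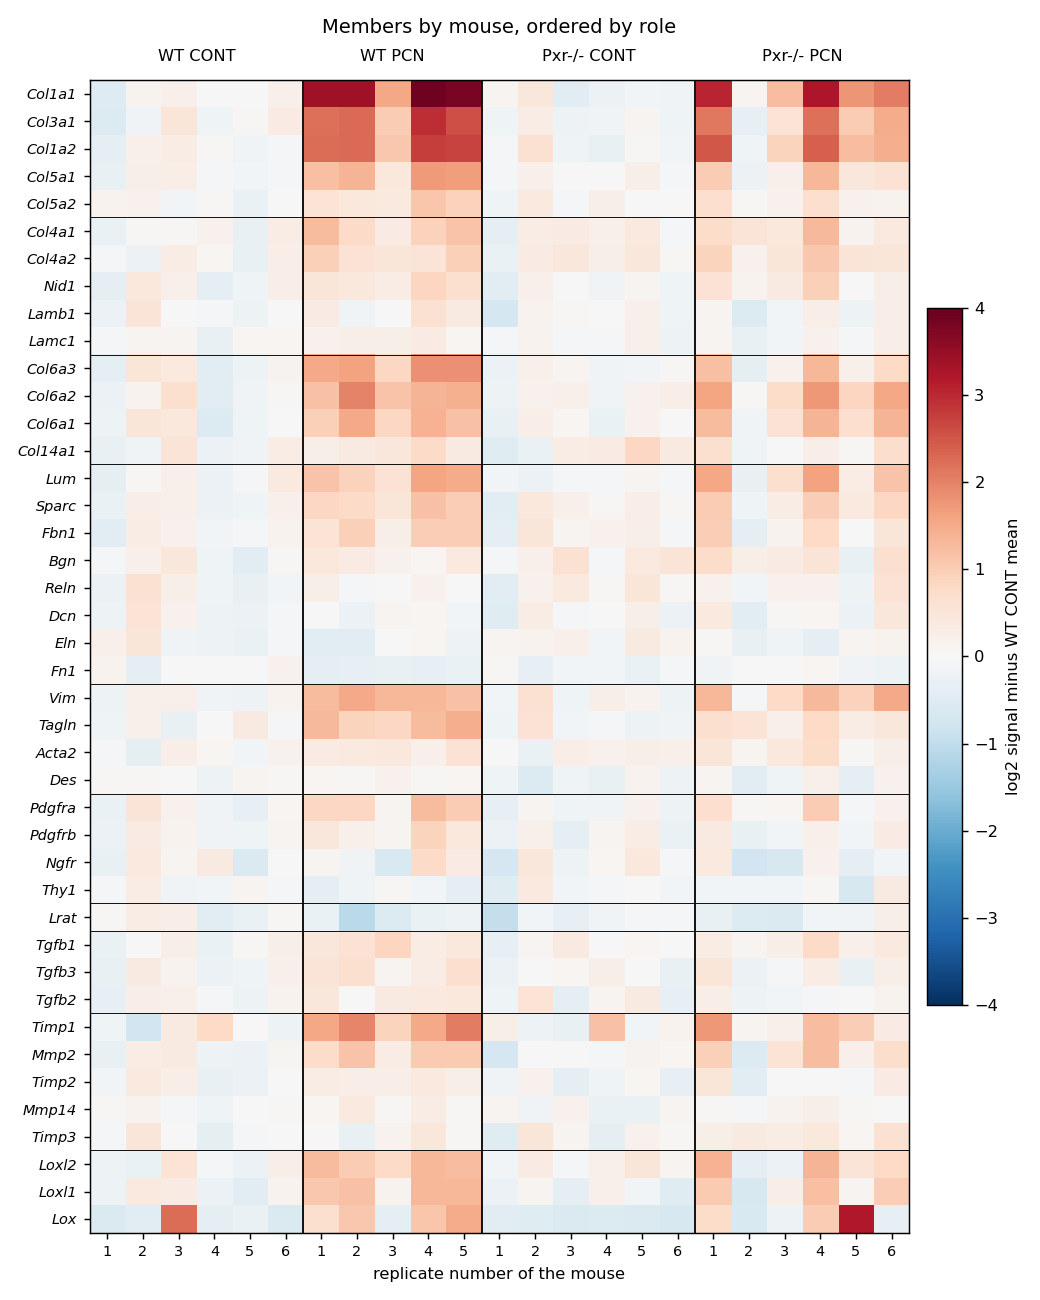
Log2 signal of each member (rows, ordered by role) in each mouse (columns, by group and replicate number) minus the mean of the 6 WT CONT mice, in log2 units on the colour scale. The upper rows are red across WT PCN mice, palest in replicate 3, and in Pxr-/- PCN mice they are red in replicates 1 and 4 and near white in replicate 2; Lox is high in WT CONT replicate 3 and Pxr-/- PCN replicate 5.

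Single mice stood apart across many members. In WT PCN replicate 3, 19 of the 20 members called in WT mice had their lowest value of that group, although 16 of the 20 were still above every WT CONT mouse. In the other 4 WT PCN mice, 20 of 20 were above every control. Its Cyp3a11 signal was 17.2, against 16.9 to 17.3 in the other 4 WT PCN mice. Pxr-/- PCN replicate 2 had 0 of the 7 members called in Pxr-/- mice above its controls, with 2 below all of them, whereas each of the other 5 mice had 7 of 7 above. These counts describe mice that entered the calls themselves. Without Pxr-/- PCN replicate 2 the number called in Pxr-/- mice was 10 rather than 7, and it was 4 without Pxr-/- CONT replicate 1, Pxr-/- PCN replicate 1 or Pxr-/- PCN replicate 4. Col1a1, Col1a2, Col6a2 and Vim kept their Pxr-/- calls whichever single array was left out, while Col3a1 lost its call in 7 of the 23 such fits (without Pxr-/- CONT replicate 1, 3, 4 or 6 or Pxr-/- PCN replicate 1, 4 or 6), at 0.98 to 1.22, and Lum in 7 (without Pxr-/- CONT replicate 1, 2, 3 or 6 or the same 3 PCN mice), at 0.72 to 0.90. Both also lost their Pxr-/- calls with slide as a block (Col3a1 at 1.31, Lum at 0.84) and with no filter (1.22 and 0.89), and Lum without normalisation between arrays (0.93). With only the groups compared in the fit, Col1a2, Col3a1, Col6a1 and Lum lost their Pxr-/- calls.

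The median WT change was larger in washing batch 1 than in batch 2. Of all 42 members, 38 were above 0 in batch 1 (3 PCN and 3 CONT mice), with a median of 0.73, and 33 in batch 2 (2 PCN mice, replicate 3 among them, and 3 CONT mice), with a median of 0.40. The 20 members called in the fit of all mice, which include the mice of both batches, had medians of 1.30 and 0.83. For Col1a1 the values were 3.81 and 2.37 in WT and 1.90 and 2.02 in Pxr-/- mice. Fitted within a batch, 22 members were called in WT mice in batch 1, the 20 among them, and 1, Tagln, in batch 2. The Pxr-/- fits called 0 members in batch 1 and 1 in batch 2, again Tagln, which is not among the 7. The shares of all genes called within a batch are not given, so that these counts are not set against a background.

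Whether PCN acted more strongly with the receptor than without it was tested by the interaction, the WT change minus the Pxr-/- change. No member was called, higher or lower, where 0.807% and 0.242% of all genes were. At an unadjusted p under 0.05, 5 members were higher (Col5a1, Col5a2, Col6a3, Tagln and Timp1) and 1 was lower (Fn1) by limma, and the lowest adjusted p was 0.107. No share of all genes at that unadjusted p is given beside these counts. The median interaction was 0.31, with 35 of 42 members above 0, against -0.01 over all genes, of which 47.9% were above 0. For Col1a1 it was 1.21 ± 0.59 (95% interval -0.00086 to 2.43, adjusted p = 0.35), with 1.90 in batch 1 and 0.35 in batch 2. Tagln gave 0.62 ± 0.21 (95% interval 0.20 to 1.05, adjusted p = 0.144), with 1.10 and 0.07 in the batches. Vim gave 0.43 ± 0.28 (95% interval -0.15 to 1.01) and Fn1 -0.39 ± 0.12 (95% interval -0.63 to -0.14, adjusted p = 0.107). The Col1a1 interval reaches from about 0 to more than its whole Pxr-/- change of 1.96, so that neither an equal nor an unequal response was shown.

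Without PCN, no member was called between the genotypes. Between Pxr-/- CONT and WT CONT mice, 0 members were called higher or lower by limma (background 0.228% and 0.0807%), 0 had an unadjusted p under 0.05 in either direction, and the median difference was -0.01. Col1a1 differed by -0.05 ± 0.40 (95% interval -0.89 to 0.78) and Dcn by -0.04 ± 0.16 (95% interval -0.37 to 0.29).

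Among PCN-treated mice, 2 members were lower in Pxr-/- than in WT mice, where 1.36% of all genes were, and 0 were higher, where 0.731% were. They were Col6a3 at -0.97 ± 0.26 (adjusted p = 0.0244) and Tagln at -0.64 ± 0.15 (adjusted p = 0.0111), and Tagln was -0.96 in batch 1 and -0.25 in batch 2. The median difference was -0.31, and 34 members were below 0, with 12 lower and 1 higher at an unadjusted p under 0.05. This comparison uses the same WT PCN mice as that of PCN in WT mice. Its count depended on the scaling, with 11 members called lower in the deposited values and 9 without normalisation between arrays, settings in which the median of all genes was itself at -0.19, and with 0 when slide was a block. It was also 0 without WT PCN replicate 5 or Pxr-/- PCN replicate 3, and 6 without WT PCN replicate 3 or Pxr-/- PCN replicate 4. No share of all genes called is given for these other settings. Groups did not overlap for Tagln, lower in Pxr-/- mice, and for Fn1, higher in them (1 member each, background 3.67% and 3.21%).

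Residuals after removing group and batch means asked whether members moved together from mouse to mouse, over 23 mice and 5 pairs, with 100000 permutations within groups and two-sided p-values. Col1a1 and Col3a1 were tightly related (Pearson's r = 0.964, Spearman's rho = 0.894, permutation p = 1e-05 each, adjusted 2.5e-05 and 5e-05, the raw p being the smallest these permutations can give), with r = 0.938 without the 2 mice farthest out and 0.949 and 0.974 within the batches. Col4a1 and Col4a2, the head-to-head genes whose windows are printed above, gave r = 0.819 and rho = 0.797 (permutation p = 1e-05 and 2e-05, adjusted 2.5e-05 and 5e-05), with r = 0.804 without the 2 mice farthest out and 0.831 and 0.810 within the batches. No relation passed for Acta2 and Tagln (r = -0.218, rho = -0.137, permutation p = 0.355 and 0.570), Col1a1 and Acta2 (r = 0.323, rho = 0.220, permutation p = 0.216 and 0.368) or Dcn and Col1a1 (r = 0.385, rho = 0.367, permutation p = 0.108 and 0.120), with adjusted p of 0.180 or more. Both Acta2 relations used its main probe, with a WT change of 0.39. The dimmer Acta2 probe, at 1.27 in WT mice, was not tested in this way.

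**Figure D4:**
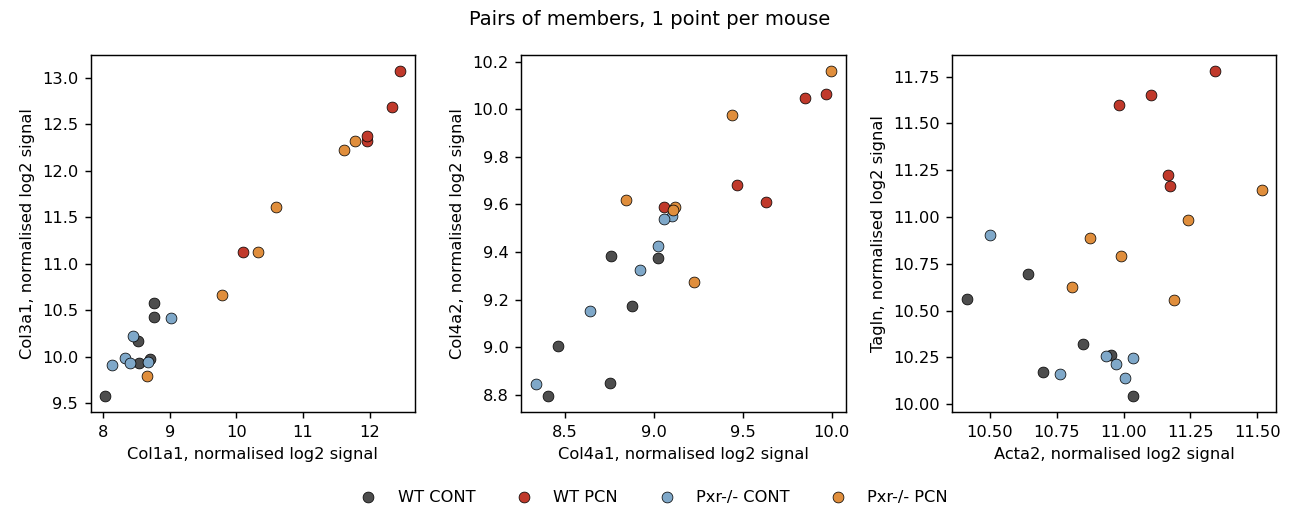
Normalised log2 signals of 3 pairs of members, 1 point per mouse and coloured by group; the values are not corrected for group or batch. Col3a1 climbs with Col1a1 along a narrow line on which the Pxr-/- PCN mice spread from control levels to WT PCN levels. Col4a2 climbs with Col4a1 more loosely, and Tagln does not follow Acta2, read from its main probe, within the groups.

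Genes beyond the members came from 4 further lists. Of 32 tested genes for other collagens and matrix glycoproteins, 7 were called higher and 0 lower in WT mice (median 0.19, against -0.02 over all genes). Over all genes, 3.79% were called higher and 2.39% lower in WT mice, and 1.42% and 0.86% in Pxr-/- mice. The largest rises were in Thbs1, thrombospondin, which can activate latent TGF-beta, at 2.37 (adjusted p = 3.73e-06), Fbln2, fibulin, at 1.38 (adjusted p = 1.05e-05), and Mfap2, a microfibril protein, at 0.83 (adjusted p = 0.00965). Tnc, tenascin, was well above background in 4 of 5 WT PCN mice and in 0 mice of the other groups, and so passed the filter through WT PCN alone. It was at least 1.61-fold higher in WT PCN than in WT CONT mice (adjusted p = 0.0121), a call that is not independent of the filter. In Pxr-/- mice Thbs1 rose by 1.19, Fbln2 by 0.59 and Col5a3 fell by 0.69. Of 24 tested genes for collagen maturation and remodelling, 7 rose and 0 fell in WT mice (median 0.29), among them Adamts4, a proteoglycan-cleaving protease, at 1.60 (adjusted p = 0.00177), and the metalloproteinases Mmp12 at 1.04 and Mmp8 at 1.02. Mmp12 was well above background in 1 of 6 WT CONT and 4 of 5 WT PCN mice. Serpinh1, the collagen chaperone, rose by 0.93 in WT mice (adjusted p = 0.000865) and was chosen for naming after its values were seen. In Pxr-/- mice 2 of the 24 rose, Mmp8 by 1.04 and Mmp9 at least 1.36-fold, Mmp9 being well above background in 6 of 6 Pxr-/- PCN and 0 of 6 Pxr-/- CONT mice. In WT mice Mmp9 was not called, although it was well above background in 5 of 5 PCN and 1 of 6 CONT mice. Mmp9, Mmp12 and Plod2, a further riser in WT mice, passed the filter through the 2 PCN groups alone. Their calls, which enter these counts, are not independent of the filter.

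Most genes of the signalling list were not called. Of 29 genes for TGF-beta and PDGF signalling, 2 rose and 2 fell in WT mice (median -0.10), which is 6.90% each against 3.79% and 2.39% of all genes. The risers were Ltbp2, a matrix protein related to the binding proteins of latent TGF-beta, at 1.84 (adjusted p = 0.000311), and the receptor Tgfbr2 at 1.03 (adjusted p = 8.69e-07). Inhbe, a hepatocyte activin subunit, fell by 1.08 (adjusted p = 0.0197), and Smad7, an inhibitor of TGF-beta signalling that TGF-beta itself induces, fell by 1.05 (adjusted p = 0.000819). In Pxr-/- mice Ltbp2 rose by 1.34 and the ligand Pdgfa fell by 0.60. Of 18 other stellate cell markers, 1 rose and 1 fell in WT mice (median -0.08), and 1 rose and 0 fell in Pxr-/- mice. In WT mice that is 5.56% each, near the 3.79% and 2.39% of all genes, and rests on 1 gene each. The marker that fell was the chemokine Cxcl12, by 0.79 (adjusted p = 0.000116). Cxcl12 was the gene of these 4 lists called in the interaction, at -0.90 (adjusted p = 0.00568). Between the genotypes under PCN, Thbs1 differed by -1.37, Adamts4 by -1.28 and Serpinh1 by -0.66, and Omd, osteomodulin, by 1.08, in Pxr-/- against WT mice, each called.

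**Figure D5:**
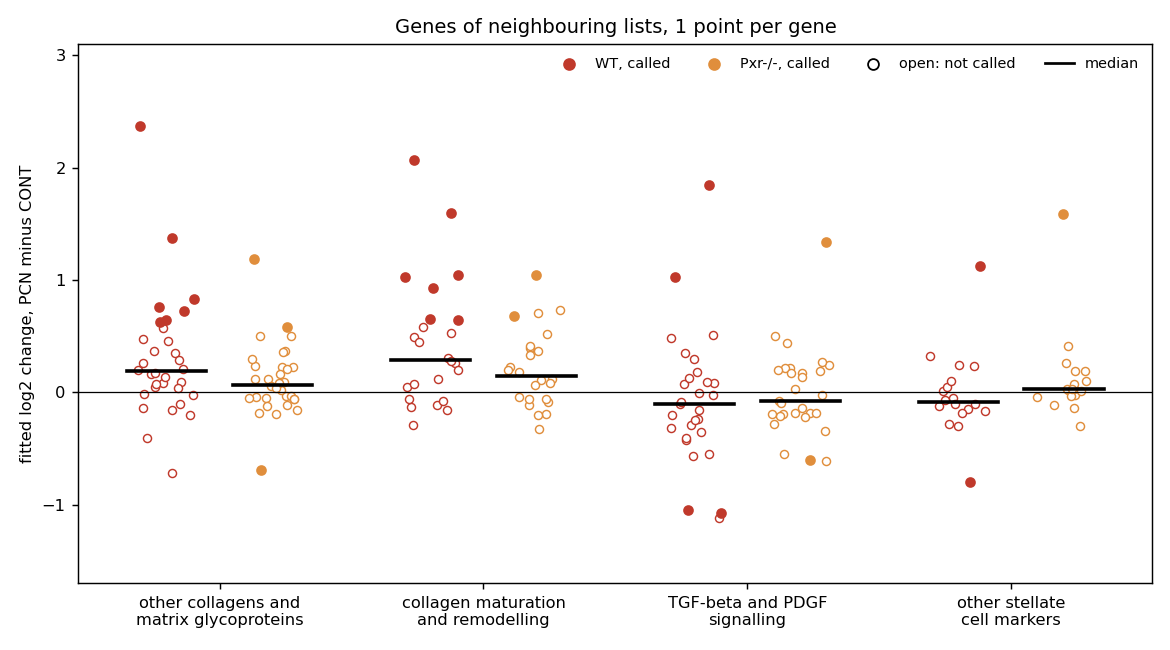
Fitted log2 change (PCN minus CONT) of each tested gene of 4 further lists, for WT (left of each pair, red) and Pxr-/- mice (right, orange); filled points were called and bars are medians. The called genes of the 2 matrix lists lie above 0 except Col5a3 in Pxr-/- mice, the largest being Thbs1 at 2.37, while the signalling list has called genes on both sides.

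Markers of other cells that make or hold matrix changed in part in the same direction as the collagens, and their relation across mice was not tested. The lists share genes. Dpt and Mfap4 are both matrix genes of the lists above and portal fibroblast markers. Msln is a portal fibroblast and a mesothelial marker, and Krt19 a mesothelial and a cholangiocyte marker. Of 8 portal fibroblast markers 3 were called higher in WT mice, Cd34 at 0.93, Pi16 at 0.92 and Dpt at 0.64, and 2 in Pxr-/- mice, Cd34 at 0.75 and Pi16 at 0.71. Beside the counts of these marker lists, 3.79% of all genes were called higher in WT mice and 1.42% in Pxr-/- mice. The summed linear signal of these 8 markers ranged over 9109 to 25138 in WT CONT, 14546 to 20707 in WT PCN, 10380 to 26777 in Pxr-/- CONT and 12804 to 21871 in Pxr-/- PCN mice, with the groups overlapping. Of 6 mesothelial markers, Wt1 was called in both genotypes, at 1.05 in WT and 0.89 in Pxr-/- mice, and the sums ranged over 730 to 1371, 679 to 2603, 533 to 1561 and 715 to 2688 in the same order. Of 6 cholangiocyte markers that passed the filter, Sox9 was called in WT mice at 0.76, and the sums ranged over 1572 to 4890, 3402 to 8145, 1914 to 3447 and 2361 to 5992. No marker was called in WT mice among 11 of Kupffer cells, 12 of liver endothelial cells, 6 of smooth muscle, 6 of lymphocytes, 6 of red blood cells, 4 of pancreas and 10 of hepatocytes, and in Pxr-/- mice Apoa1, at 0.62, was called among the hepatocyte markers. All 10 hepatocyte markers passed the filter, with sums between 1956560 and 2230070 over the 23 livers. Called or not, 11 of 11 Kupffer cell markers (median 0.29), 12 of 12 liver endothelial markers (median 0.19), 6 of 6 mesothelial markers (median 0.78) and 5 of 6 cholangiocyte markers (median 0.61) were above 0 in Pxr-/- mice, beside a median of 0.32 for the 42 members. In WT mice these were 9 of 11 (median 0.15), 5 of 12 (median -0.10), 5 of 6 (median 0.34) and 4 of 6 (median 0.57), beside 0.61 for the members. Red blood cell markers were above 0 for 0 of 6 in both genotypes (median -0.36 in WT and -0.42 in Pxr-/- mice). The part that these cell types had in the changes of the members was not tested.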

How the data were processed

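Total RNA of 23 livers (TRIzol) was labelled with Cy3 from 150 ng and hybridised to Agilent SurePrint G3 Mouse GE arrays. The scanner intensity values were deposited by the authors as written by Agilent Feature Extraction 10.10.1.1, with probe positions on mm9. The authors also deposited a log2 table of 32574 probes, which they filtered, corrected for washing batch and normalised with CrossNorm, and which served here as an alternative. From the median intensity, control and outlier spots were removed, spots of a probe were averaged, and log2 values were quantile normalised, a scaling that can compress changes of dim probes. A probe was kept when any group had it well above background in over 50% of its mice (32087 probes, 21056 genes). All 4 groups were fitted together in limma 3.58.1 (R 4.3.3), with washing batch as a covariate, where the study corrected the values for batch before its fit, and with 18 residual degrees of freedom. The number of arrays limits the precision. Benjamini-Hochberg adjustment covered all probes, and calls required an adjusted p no larger than 0.05 together with a fold change above 1.5. Group means carry an SD, and fitted changes a standard error. The members and lists were chosen with earlier results of these data known. Values by mouse are given for members called in any contrast and for Col1a1, Col3a1, Dcn, Acta2, Des, Lrat, Tgfb1, Timp1 and Fn1, and up to 4 called genes are named per other list and contrast. Some genes of these lists are counted but not reported by name here. The fit was tested on simulated data. Alternatives covered background correction, scaling, filter, probe, covariates, threshold and single arrays left out. The study allotted 6 mice to WT PCN, of which 5 are analysed here. Mice were separate animals.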

Additional observations from a re-analysis of the deposited data

Results flagged for a closer look

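In 168 groups of 5 or 6 mice (42 members, 4 groups), 14 values stood apart from the rest of their group by Dixon's test, and chance alone flags about 1 group in 20. Those in WT PCN replicate 3 were Col1a1 at 10.11, the lowest of its group, Loxl1 at 7.18, also the lowest, and Des at 6.33, the highest. In WT CONT mice they were Col1a1 at 8.03 (replicate 1), Des at 5.95 (replicate 4), Fn1 at 16.06 and Lamb1 at 9.71 (both replicate 2) and Lox at 7.80 (replicate 3). In WT PCN mice Tgfb2 stood at 6.32 in replicate 2 and Timp2 at 11.75 in replicate 4. In Pxr-/- CONT mice Lrat stood at 6.97 and Mmp2 at 5.34 in replicate 1, Tagln at 10.91 in replicate 2 and Timp1 at 10.0 in replicate 4. No value of Pxr-/- PCN mice met the test, and the low values of replicate 2 of that group were therefore not among the 14.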

How the results depend on the processing

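No change of a called member reversed under any alternative. The 20 members called higher in WT mice became 1 within washing batch 2, and 19 to 23 with single arrays left out, and the 0 called lower became 1 (Fn1) with no fold limit. The 7 called higher in Pxr-/- mice became 3 with only the groups compared in the fit, 0 and 1 within batches 1 and 2 (the 1 being Tagln, not among the 7), and 4 to 10 with single arrays left out. The 2 called lower in Pxr-/- PCN mice became 11 in the deposited values, 9 without normalisation between arrays, 0 with slide as a block, 1 with only the groups compared, 0 within batch 2 and 0 to 6 with single arrays left out. The cause was not tested, although a fit within a batch has 2 or 3 mice a group. Counts under the alternatives are given without the share of all genes called there, and so are not set against a background. Tgfb1 was called in WT mice on the processed signal (0.60), in the deposited values and without normalisation between arrays (0.68 each), and without WT CONT replicate 3 (0.61). Deviations of same-numbered mice correlated at -0.25 to 0.49 over 33 pairs (median 0.07, 11 above 0.1). Those of mice with unlike numbers correlated at -0.37 to 0.39 over 165 pairs (median -0.02, 35 above 0.1). Of the 23 mice, 7 correlated best with a mouse of their own number, and whether replicate numbers pair the mice weakly is not settled by these values. With replicate number as a block, 20 members were called higher in WT and 7 in Pxr-/- mice, and 2 lower in Pxr-/- PCN mice. Low signal limits Col5a2, Eln and Lox.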
